A study of Platycodon grandiflorus with 6 samples.

Results

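The triterpene-oxidising cytochrome P450s of *Platycodon grandiflorus* (balloon flower) were described across callus and leaf at the level of single unigenes, which are assembled transcripts, and of the clusters into which the assembly joined transcripts, a few of them with unlike names. Members were chosen by the name of their best SwissProt match, with no use of expression: beta-amyrin 28-, 24- and 11-oxidising enzymes, dammarane hydroxylases, secologanin synthase, and P450s named CYP716, CYP72A, CYP93E or CYP749A, leaving out matches to peanut. This gave 162 of the 152777 unigenes, which fell into 9 assembly clusters and 55 single unigenes, 64 units of 94586 in all.

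The series held 3 callus libraries (replicates 4, 5 and 6) and 3 leaf libraries (replicates 1, 2 and 3). Callus was grown for 50 days from stem pieces with nodes on MS medium with 1.0 mg/L NAA, an auxin, and 0.5 mg/L 6-BA, a cytokinin, under 12 h of light a day at 1600 lx and 25 °C, and the leaves came from the original plants. Assigned reads summed to 18546158 to 19444638 counts in callus and to 17963458 to 18669613 counts in leaf. The methods call the replicates biological but the labels name no plant or culture, so the p-values measure the spread between these libraries.

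Platycodon roots are rich in platycodins, saponins built on the oleanane skeleton of beta-amyrin. After beta-amyrin synthase closes the ring system, P450s of the CYP716 family oxidise it, most often at carbon 28 and in this genus also at carbon 16, and sugars are added later. CYP72A enzymes oxidise other positions of the same skeleton in several legumes, and CYP93E enzymes act at carbon 24 in legumes. All need electrons from NADPH-cytochrome P450 reductase, and CYP749A is a further family of the CYP72 clan.

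The names held up unevenly against the other annotations. Of the 162 members, 138 carried the P450 protein domain and 24 did not, and 76 had their best nucleotide match among named Platycodon P450s. A numbered P450 name stood in both the nucleotide and the protein match of 58 members, and it was the same name for 51. The 18 unigenes named dammarane hydroxylases, after ginseng enzymes, mostly matched other enzymes: 14 matched Platycodon CYP716S4, CYP716S5 or CYP716S6 and 1 matched CYP716A141. Of the 10 unigenes named beta-amyrin 28-monooxygenase, 4 matched CYP716A140v2, 2 matched CYP716A141, whose database title is beta-amyrin 16-oxidase, and 1 matched CYP716D58. CYP93E was represented by 1 fragment of 442 bases, Unigene73430_All, whose protein match was a CYP93A2-like enzyme. It had 0, 0.33 and 0.17 FPKM (fragments scaled by transcript length and by library depth) in callus replicates 4, 5 and 6, against 1.04, 0 and 0 FPKM in leaf replicates 1, 2 and 3. No unigene carried a name for carbon 11, carbon 30 or secologanin synthase after the peanut filter. The largest groups were 63 unigenes named CYP72A and 66 named CYP749A.

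Whole-series measures that differed between the tissues stand here beside the P450 results, and their part in those results was not tested. Leaf mesophyll markers (138 unigenes, photosystem and Rubisco proteins) summed to 12516 to 12987 FPKM in callus and 33928 to 43008 FPKM in leaf. Dividing-cell markers (56 unigenes) summed to 215 to 301 FPKM in callus and 115 to 128 FPKM in leaf, and vascular markers (27 unigenes) to 16.9 to 22.8 FPKM in callus and 4.74 to 6.67 FPKM in leaf. Transcripts matching peanut were most abundant in leaf replicate 1, at 14271 FPKM in sum, against 2738 and 1983 FPKM in leaf replicates 2 and 3. These are bulk samples, in which fewer cells of a type and less RNA per cell cannot be told apart.

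Of the 162 members, 110 had enough counts to be tested, 41 had counts but too few, and 11 were at 0 in every library. In the edgeR quasi-likelihood test over 66307 unigenes, with Benjamini-Hochberg adjustment and an adjusted p of 0.05 as the limit, 25 members were higher in callus (22.7% of those tested, against 14.2% of all tested unigenes) and 6 were lower (5.45%, against 12.3%). The median log2 fold change, callus over leaf, was 0.19 for the tested members and -0.10 for all tested unigenes. The 2 members at 0 in every leaf library stayed far above the median when put at their lower bound, so the median could not move from 0.19. All 3 callus libraries were above all 3 leaf libraries in FPKM for 44 of the 110 tested members (28.4% of all tested unigenes) and below them for 18 (25.5% of all tested unigenes). By role, 5 of 9 tested unigenes named for carbon 28 were higher and 0 lower, 5 of 9 named dammarane hydroxylases were higher and 1 lower, 8 of 47 named CYP72A were higher and 5 lower, and 7 of 43 named CYP749A were higher and 0 lower. In the group named CYP749A, 15 tested unigenes had a negative log2 fold change, and none of them passed.

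The unigene calls depended on single libraries, in the members and over all unigenes. Of the 25 higher and 6 lower members, 0 and 0 were called without callus replicate 6, in a fit with 2 callus libraries. Without callus replicate 5, 6 and 0 were called. Without callus replicate 4, 13 of the 25 and 1 of the 6 kept their call. Without leaf replicates 1, 2 and 3 it was 19 and 1, 18 and 2, and 20 and 2. Over all unigenes, 9417 were called higher and 8160 lower of 66307 with all 6 libraries. Without callus replicate 6 the counts were 670 and 455 of 74504, and without callus replicate 5 they were 1749 and 1219 of 74400. Without callus replicate 4 they were 5067 and 4072 of 74619. Without leaf replicates 1, 2 and 3 they were 10075 and 8530, 8774 and 6406, and 10308 and 8096. All 31 kept the sign of their change in each of these fits. At the thresholds stated in the study's methods, an adjusted p of 0.001 and a 2-fold change, edgeR called 0 members in either direction (0% of all tested unigenes in either direction). An unadjusted p under 0.05 was found for 50 of the 110 tested members and for 27668 of all 66307 tested unigenes. DESeq2 called 20 of 151 fitted members higher and 2 lower at those thresholds, against 7527 and 5484 of all 143094 fitted unigenes. Limma on log2(FPKM + 1) called 1 of 130 fitted members higher and 0 lower, against 988 and 399 of all 102152 fitted unigenes.

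**Figure D1:**
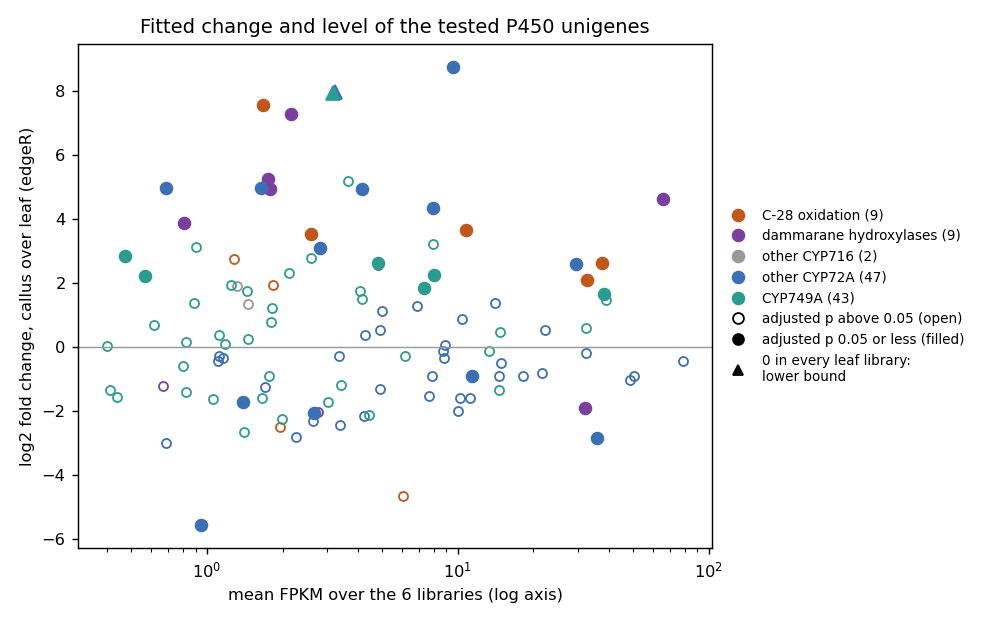
Log2 fold change of callus over leaf (edgeR) against mean FPKM over the 6 libraries (log axis) for the 110 tested P450 unigenes, coloured by the group of their SwissProt name; filled symbols passed an adjusted p of 0.05 and triangles are the lower bounds of the 2 unigenes at 0 in every leaf library. The most abundant members lie on both sides of 0, and the 25 members that were higher are spread over 4 of the groups.

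With counts summed over clusters, 42 of the 64 units were tested among 32898 in the table. Callus was higher for 10 of them (23.8%, against 22.0% of all tested units) and lower for 4 (9.52%, against 20.8%). The median log2 fold change was -0.14, against -0.05 for all tested units. These 10 included cluster CL7245 and left out CL237, whose sums came mostly from contigs that are not members. With member contigs alone, 10 were higher and 4 lower of 41 tested units, against 7232 and 6852 of all 32901. At the thresholds of the methods 1 unit was higher (1.13% of all tested units) and 0 were lower (1.35% of all tested units). An unadjusted p under 0.05 was found for 18 of the 42 tested units. The share of all tested units at that limit was not counted, so nothing is read from this number. In DESeq2 those thresholds gave 8 higher and 2 lower of 62 fitted units, against 4816 and 3464 of all 89061 fitted units. The single strict edgeR call, cluster CL7245, was not a P450 result: its member contig held 2.65% of the cluster's counts, the other contigs had no P450 name, and with member contigs alone the count was 0. That member, CL7245.Contig3_All, was at 0 FPKM in all 3 callus libraries, against 0, 0 and 3.16 FPKM in leaf replicates 1, 2 and 3.

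Both CYP716A enzymes, annotated for carbon 28 and carbon 16, were higher in callus. Cluster CL9014 matched CYP716A140v2, and its 4 contigs carried the name of the enzyme that turns beta-amyrin into oleanolic acid through carbon 28. CL9014.Contig1_All, the main contig, had 53.5, 45.0 and 60.2 FPKM in callus replicates 4, 5 and 6, against 17.7, 6.01 and 14.1 FPKM in leaf replicates 1, 2 and 3. The groups did not overlap, and the log2 fold change was 2.08 ± 0.42 (SE; edgeR adjusted p = 0.0182). CL9014.Contig4_All ran the other way, with 0.92, 0 and 0.32 FPKM in callus, against 20.9, 3.18 and 10.8 FPKM in leaf, and just missed the limit (log2 fold change -4.66 ± 1.39, edgeR adjusted p = 0.0547). Leaf replicate 2 was the lowest leaf library for both contigs. The cluster as a whole was higher in callus by 1.33 ± 0.34 on the log2 scale (edgeR adjusted p = 0.0227). That call was lost without callus replicate 4 (edgeR adjusted p = 0.0606) and without callus replicate 6 (edgeR adjusted p = 0.0718).

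Cluster CL3772 matched CYP716A141, the 16-oxidase of beta-amyrin, although SwissProt named 2 of its contigs for carbon 28 and 1 as a dammarenediol 12-hydroxylase. CL3772.Contig1_All had 69.3, 55.3 and 69.5 FPKM in callus replicates 4, 5 and 6, against 12.5, 6.14 and 12.8 FPKM in leaf replicates 1, 2 and 3. The tissues did not overlap, and the log2 fold change was 2.64 ± 0.34 (edgeR adjusted p = 0.00737). CL3772.Contig2_All (5.22, 5.64 and 3.48 FPKM in callus, 0.15, 0.48 and 0.56 FPKM in leaf) and CL3772.Contig3_All (1.2, 1.49 and 1.89 FPKM in callus, 0.15, 0 and 0.11 FPKM in leaf) rose too, by 3.54 ± 0.64 and 3.89 ± 0.90 on the log2 scale (edgeR adjusted p = 0.0141 and 0.0268). All 3 contigs thus passed in the same direction, unlike those of CL9014. As a cluster the log2 fold change was 2.61 ± 0.29 (edgeR adjusted p = 0.00176), and it lay between 2.36 and 2.81 when each library was left out, with an adjusted p of at most 0.0130.

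The remaining unigenes named for carbon 28 were less abundant. Unigene734_All, which matched CYP716D58, had 8.05, 27.9 and 23.7 FPKM in callus, against 2.94, 0.58 and 1.19 FPKM in leaf. Callus replicate 4 was the lowest of the callus libraries and still above all leaf libraries (log2 fold change 3.65 ± 0.76, edgeR adjusted p = 0.0201). Unigene36768_All, with no named Platycodon match, had 3.86, 2.43 and 3.68 FPKM in callus, against 0, 0.04 and 0 FPKM in leaf. Its leaf signal was a single count, against 274 counts in callus, a ratio of 266 per counted read with a 95% exact binomial interval of 47.3 to 10527 that covers counting error only (edgeR adjusted p = 0.00857). Unigene9475_All had 1.10, 2.31 and 3.27 FPKM in callus, against 0.69, 0.27 and 0.04 FPKM in leaf, which did not pass (log2 fold change 2.75 ± 1.05, edgeR adjusted p = 0.101).

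Members called in both directions were found within cluster CL11943, which joined 13 contigs of 3 related enzymes. By nucleotide match 4 contigs were CYP716S5, titled beta-amyrin 12,13-epoxidase in the databases, 7 were CYP716S6, a P450 with no stated reaction, and 2 were CYP716S4. CL11943.Contig7_All, the main CYP716S5 contig, had 128, 127 and 124 FPKM in callus replicates 4, 5 and 6, against 0.38, 1.45 and 13.4 FPKM in leaf replicates 1, 2 and 3. The callus libraries were nearly equal while the leaf libraries ranged widely, with leaf replicate 3 far above the others. The log2 fold change was 4.63 ± 1.32 (edgeR adjusted p = 0.0480), and it was 7.09 without leaf replicate 3.

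The 3 minor CYP716S5 contigs were likewise higher in every callus library, with leaf replicate 3 the highest of the leaf libraries. CL11943.Contig1_All had 3.45, 4.78 and 4.70 FPKM in callus, against 0, 0 and 0.07 FPKM in leaf. Its 1.9 expected counts in leaf, against 382 in callus, gave a ratio of 194 with a 95% exact binomial interval of 50.9 to 1534 (edgeR adjusted p = 0.0104). CL11943.Contig6_All (log2 fold change 5.27 ± 1.47, edgeR adjusted p = 0.0457) and CL11943.Contig13_All (4.94 ± 1.33, edgeR adjusted p = 0.0415) had 2.88 to 3.94 FPKM in callus and, in leaf, 0, 0 and 0.26 or 0.28 FPKM in replicates 1, 2 and 3. All of the leaf counts of these 3 contigs came from leaf replicate 3, and without it the log2 fold changes of CL11943.Contig6_All and CL11943.Contig13_All were 9.76 and 8.80.

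CL11943.Contig2_All, the main CYP716S6 contig, had 18.9, 13.5 and 7.49 FPKM in callus replicates 4, 5 and 6, against 76.9, 33.0 and 42.8 FPKM in leaf replicates 1, 2 and 3. It was lower in callus, with no overlap (log2 fold change -1.92 ± 0.48, edgeR adjusted p = 0.0337). Of the other CYP716S6 contigs tested, CL11943.Contig3_All had 2.95, 9.48 and 12.4 FPKM in callus, against 2.33, 1.77 and 0 FPKM in leaf, and did not pass (2.56 ± 1.44, edgeR adjusted p = 0.231). CL11943.Contig4_All had 0.57, 0.79 and 1.95 FPKM in callus, against 6.41, 6.90 and 0 FPKM in leaf, and overlapped through leaf replicate 3.

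For 2 CYP716S6 fragments the leaf libraries differed widely from each other. CL11943.Contig12_All had 0, 0.12 and 0 FPKM in callus, against 0.72, 0.23 and 27.5 FPKM in leaf replicates 1, 2 and 3. Unigene10563_All, 481 bases long and outside the cluster, had 0, 0.16 and 0 FPKM in callus, against 17.9, 7.88 and 0 FPKM in leaf. The first was highest in leaf replicate 3, and the second was at 0 there and present in leaf replicates 1 and 2. Reads shared by near-identical contigs were divided between them before deposition, so single contigs are less certain than the sum for their enzyme.

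Summed over the unigenes of each enzyme, and chosen after the values had been seen so that no test is given, CYP716S5 had 138, 140 and 135 FPKM in callus, against 0.38, 1.45 and 14.0 FPKM in leaf. CYP716S6 had 23.2, 24 and 22.2 FPKM in callus, against 105, 50.9 and 74.7 FPKM in leaf. CYP716S5 contigs held 84.2%, 84.7% and 85.3% of the counts of CL11943 in callus, against 0.400%, 3.0% and 18.3% in leaf. The sum for the whole cluster showed little of this: it was higher in callus by 1.05 ± 0.24 on the log2 scale (edgeR adjusted p = 0.0150). That call held when each library was left out, with log2 fold changes of 0.85 to 1.26 and an adjusted p of at most 0.0456.

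**Figure D2:**
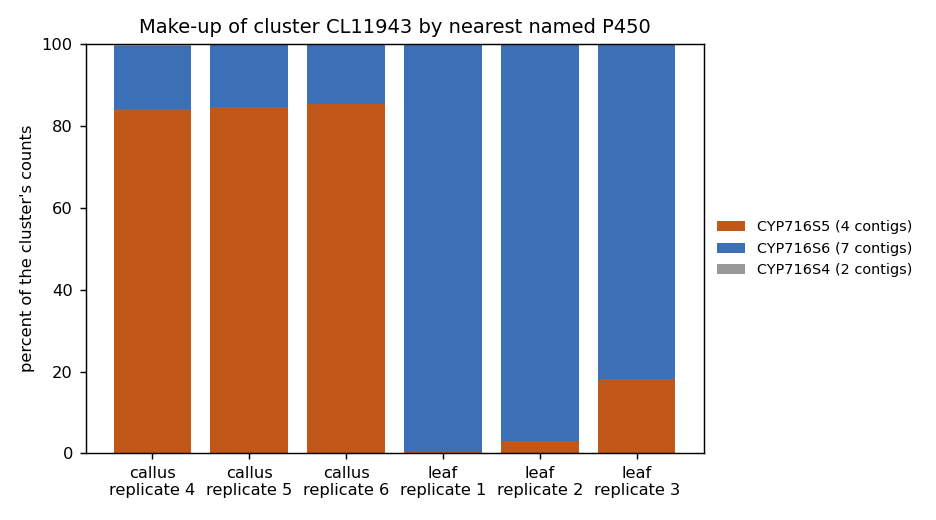
Percent of the counts of cluster CL11943 that fell on contigs matching CYP716S5, CYP716S6 and CYP716S4, as stacked bars for each callus library and each leaf library. CYP716S5 made up 84.2% to 85.3% in the callus libraries, against 0.400% to 18.3% in the leaf libraries.

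Of the remaining CYP716 members most had too few counts for the test. The 2 CYP716S4 contigs summed to 3.87, 0.74 and 1.74 FPKM in callus, against 0.15, 0 and 0.52 FPKM in leaf, and neither was tested. Unigene28807_All, named protopanaxadiol 6-hydroxylase, had 10.1, 0.04 and 0.63 FPKM in callus, against 0, 0 and 0.07 FPKM in leaf, so that its level rested on callus replicate 4. Unigene20035_All, named CYP716B1 after a conifer enzyme, had 3.65, 0.74 and 1.81 FPKM in callus, against 0.25, 0.40 and 1.02 FPKM in leaf, with overlap (log2 fold change 1.90 ± 0.86, edgeR adjusted p = 0.151). CL10489.Contig2_All, with the same name, had 4.03, 0.99 and 1.13 FPKM in callus, against 2.52, 0.04 and 0 FPKM in leaf (1.34 ± 1.75, edgeR adjusted p = 0.597). Leaf replicate 1 decided that value: without it the log2 fold change was 6.33 (edgeR adjusted p = 0.0366).

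**Figure D3:**
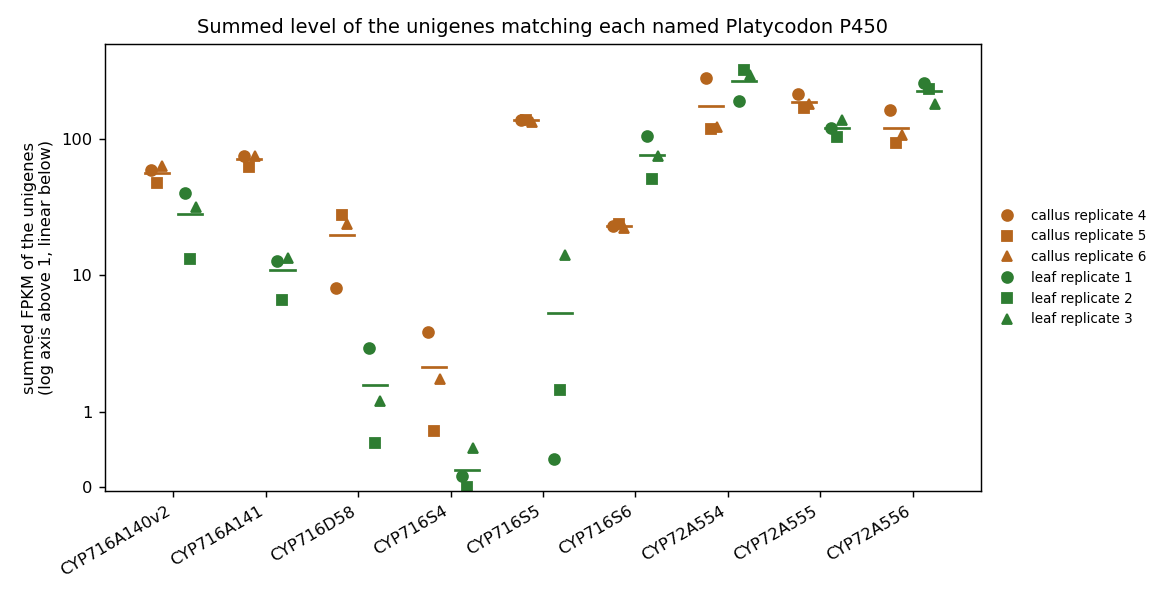
Summed FPKM of the unigenes matching each of 9 named Platycodon P450s (log axis above 1, linear below), with 1 symbol per library, callus left of leaf, and a line at the mean of each tissue. The sums of CYP716S5 lay between 135 and 140 in callus and between 0.38 and 14.0 in leaf, those of CYP716S6 between 22.2 and 24 in callus and between 50.9 and 105 in leaf.

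The CYP72A unigenes are given by their nearest named Platycodon enzyme in nucleotide sequence, and differences between these enzymes were not tested. Of the 63 members named CYP72A, 53 matched CYP72A554, CYP72A555 or CYP72A556, and 1 unigene named CYP716A67 matched CYP72A555 as well. Cluster CL13253 held 32 of them, with all 3 enzymes mixed, and its sum was 473, 254 and 278 FPKM in callus, against 352, 475 and 483 FPKM in leaf. The tissues overlapped through callus replicate 4, and the cluster did not pass (log2 fold change -0.53 ± 0.35, edgeR adjusted p = 0.265). Within it 4 of 26 tested contigs were higher in callus and 3 were lower. These shares, 15.4% and 11.5%, were near the 14.2% and 12.3% of all tested unigenes.

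Of 10 tested CYP72A555 unigenes, 5 were higher in callus (50%, against 14.2% of all tested unigenes) and 0 lower (against 12.3%). CL13253.Contig7_All had 37.9, 59.6 and 54.9 FPKM in callus, against 9.43, 4.91 and 10.5 FPKM in leaf (log2 fold change 2.61 ± 0.35, edgeR adjusted p = 0.00787). CL13253.Contig4_All had 12.98, 14.4 and 18.02 FPKM in callus, against 1.46, 0.64 and 0.15 FPKM in leaf (4.34 ± 0.83, edgeR adjusted p = 0.0160). Neither contig overlapped between the tissues.

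Other CYP72A555 transcripts were at or near 0 in leaf. Unigene10670_All had 20.2, 16.7 and 20.3 FPKM in callus, against 0, 0 and 0.12 FPKM in leaf, where its 4 counts all came from replicate 3 (log2 fold change 8.76 ± 1.19, edgeR adjusted p = 0.00828). Unigene10801_All had 4.10, 9.09 and 6.29 FPKM in callus and 0 counts in every leaf library. With 3 counts over the 3 leaf libraries taken as the floor, callus was at least 250.1-fold higher (edgeR adjusted p = 0.00681). CL13253.Contig26_All was scarcer, with 1.51, 1.01 and 1.47 FPKM in callus, against 0.11, 0 and 0 FPKM in leaf (4.99 ± 1.35, edgeR adjusted p = 0.0421, and 8.83 without leaf replicate 1, the only leaf library with counts).

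The member ranked first by its average level across callus and leaf together did not pass. CL13253.Contig23_All matched CYP72A555 by nucleotide sequence, but its protein match was CYP72A554, so its enzyme is uncertain. It had 102, 41.0 and 56.6 FPKM in callus, against 88.2, 80.2 and 105 FPKM in leaf. The tissues overlapped, and callus replicate 4 lay within the leaf range (log2 fold change -0.43 ± 0.39, edgeR adjusted p = 0.446). With this contig included, the CYP72A555 sum was 215, 170.0 and 181 FPKM in callus, against 121, 104 and 139 FPKM in leaf.

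Of 14 tested CYP72A556 unigenes 2 passed as lower in callus (14.3%, near the 12.3% of all tested unigenes) and 0 as higher, and 12 had a negative log2 fold change. CL13253.Contig18_All had 8.81, 7.22 and 7.80 FPKM in callus, against 16.5, 15.1 and 13.1 FPKM in leaf (log2 fold change -0.91 ± 0.25, edgeR adjusted p = 0.0457). CL13253.Contig8_All had 1.56, 0.84 and 0.61 FPKM in callus, against 6.92, 3.25 and 2.85 FPKM in leaf (-2.07 ± 0.59, edgeR adjusted p = 0.0479). Their calls were lost in 7 and 8 of the 14 alternative fits. Some rises were as unsteady: CL11943.Contig6_All and CL13253.Contig19_All each lost their call in 7 of the 14.

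The 2 most abundant CYP72A556 transcripts had no overlap between the tissues but did not pass. Unigene5200_All had 43.0, 29.0 and 32.1 FPKM in callus, against 75.5, 73.5 and 48.2 FPKM in leaf (log2 fold change -0.92 ± 0.29, edgeR adjusted p = 0.0639). CL13253.Contig31_All had 40.8, 25.2 and 28.5 FPKM in callus, against 79.4, 69.0 and 46.9 FPKM in leaf (-1.04 ± 0.33, edgeR adjusted p = 0.0631). In the cluster-level fit, where Unigene5200_All is a unit of its own, it passed (-1.004 ± 0.26, edgeR adjusted p = 0.0241). That call was lost in 5 of 13 alternative fits. Summed, CYP72A556 stood at 163, 93.4 and 107 FPKM in callus, against 259, 233 and 182 FPKM in leaf.

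Of 18 tested CYP72A554 unigenes 2 were higher in callus (11.1%, against 14.2% of all tested unigenes) and 1 was lower (5.56%, against 12.3%). The tissues overlapped for 12 of the 18, and for 30568 of all 66307 tested unigenes. CL13253.Contig30_All had 16.4, 2.92 and 6.21 FPKM in callus, against 73.9, 64.8 and 51.5 FPKM in leaf, the largest fall that passed among members with at least 5 FPKM in leaf (log2 fold change -2.87 ± 0.69, edgeR adjusted p = 0.0297). Unigene9959_All had 9.15, 5.60 and 9.33 FPKM in callus, against 0.36, 0.06 and 0.34 FPKM in leaf (4.94 ± 0.70, edgeR adjusted p = 0.00896), and CL13253.Contig19_All had 10.2, 2.17 and 2.77 FPKM in callus, against 0.48, 0.76 and 0.57 FPKM in leaf (3.08 ± 0.82, edgeR adjusted p = 0.0393, and 2.02 without callus replicate 4).

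Much of the CYP72A554 spread lay between libraries of the same tissue. The summed level was 280.0, 118 and 123 FPKM in callus, against 190, 320.2 and 296 FPKM in leaf, so that callus replicate 4 lay within the leaf range and the other callus libraries did not. Callus replicate 4 was the highest callus library for 12 of the 15 CYP72A554 unigenes with at least 1 FPKM in callus. It was so for 48 of the 89 members and for 28.6% of all tested unigenes at that level. The CYP72A555 and CYP72A556 sums were also highest in callus replicate 4 among the callus libraries (215 and 163 FPKM). Many CYP72A554 unigenes are contigs of CL13253, between which shared reads were divided, so they are not separate measurements. CL13253.Contig1_All showed it in full, with 26.3, 1.43 and 2.28 FPKM in callus, against 2.58, 28.9 and 26.0 FPKM in leaf: callus replicate 4 stood with leaf replicates 2 and 3, and leaf replicate 1 with the other callus libraries.

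Leaf replicate 1 was the lowest leaf library for 13 of 17 CYP72A554 unigenes with at least 1 FPKM in leaf, and for 32.1% of all tested unigenes at that level. CL13253.Contig21_All had 19.7, 24.3 and 17.1 FPKM in callus, against 0, 5.56 and 17.6 FPKM in leaf, and CL13253.Contig24_All had 30.9, 27.0 and 21.6 FPKM in callus, against 0.84, 21.3 and 31.98 FPKM in leaf. Both contigs were thus nearly missing from leaf replicate 1 alone. Callus replicate 4 also had the highest epidermis and cuticle marker sum of the callus libraries (6317 FPKM, with 2408 and 2769 FPKM in callus replicates 5 and 6). It had the highest sum of other P450s as well (3665 FPKM, with 2729 and 2842 FPKM). In leaf the order differed from that of CYP72A554. Leaf replicates 1, 2 and 3 had marker sums of 10712, 2736 and 7142 FPKM, and 1857, 1552 and 2239 FPKM of other P450s. The part of these in the CYP72A554 levels was not tested.

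**Figure D4:**
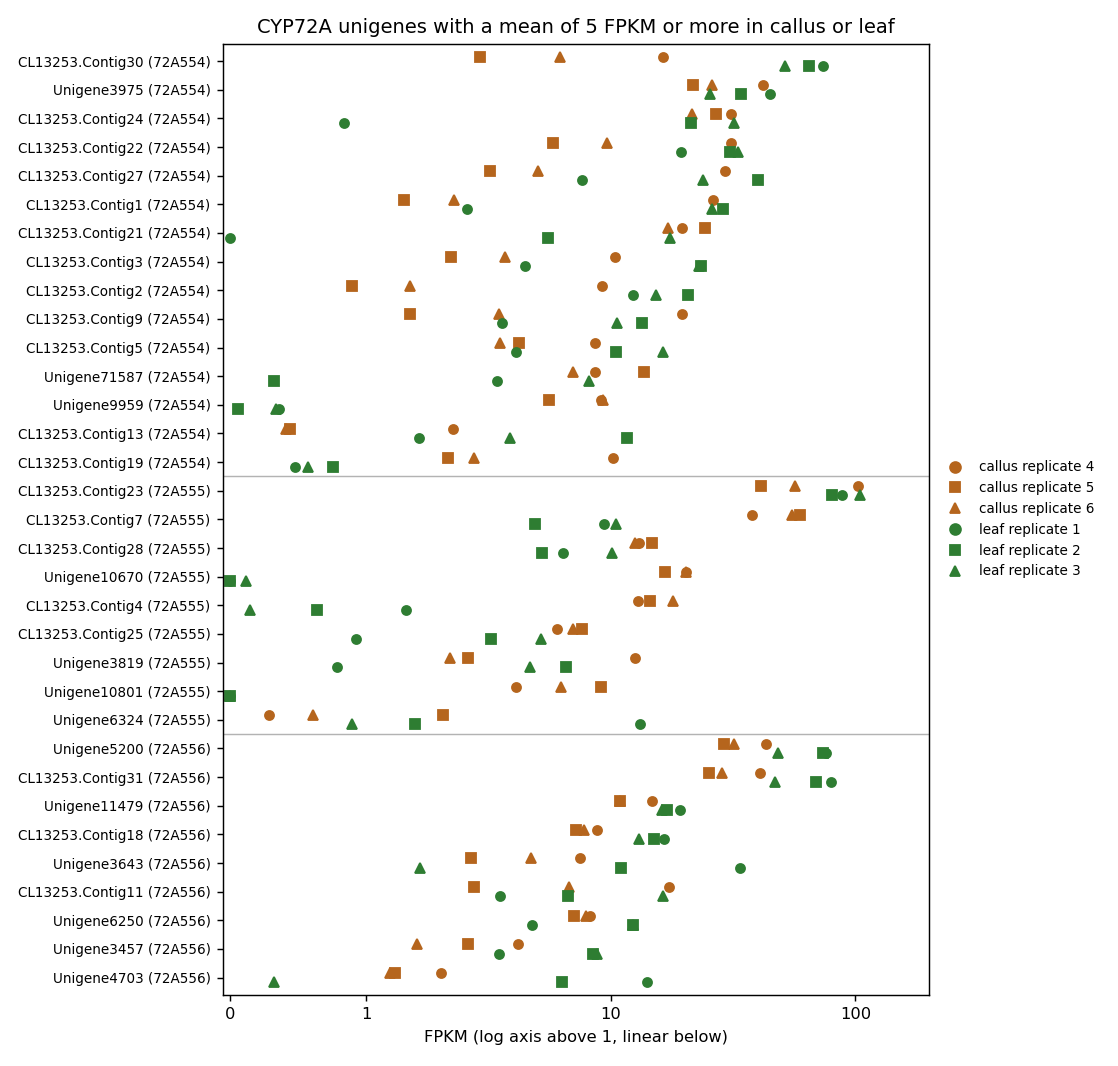
FPKM in each library (log axis above 1, linear below) for the 33 unigenes that matched CYP72A554, CYP72A555 or CYP72A556 and had a mean of 5 FPKM or more in callus or leaf, with callus symbols above leaf symbols in each row. For many CYP72A554 unigenes callus replicate 4 sits among the leaf libraries, as for CL13253.Contig1_All at 26.3 FPKM, whereas CYP72A555 unigenes such as CL13253.Contig7_All have all callus libraries to the right.

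Of the CYP72A members without a named Platycodon nucleotide match, 3 passed. Unigene12183_All had 0.05, 0 and 0.05 FPKM in callus, against 0.84, 2.40 and 2.36 FPKM in leaf, from 2.1 expected counts in callus and 108 in leaf. The ratio of callus to leaf per counted read was 0.0184, with a 95% exact binomial interval of 0.00215 to 0.0664 (edgeR adjusted p = 0.0128). CL13129.Contig2_All had 0.82, 0.55 and 0.56 FPKM in callus, against 2.22, 2.46 and 1.77 FPKM in leaf (log2 fold change -1.73 ± 0.44, edgeR adjusted p = 0.0363). Neither of these lower unigenes carried the P450 protein domain. Unigene24298_All went the other way, with 3.36, 3.54 and 2.71 FPKM in callus, against 0, 0 and 0.28 FPKM in leaf (4.97 ± 1.27, edgeR adjusted p = 0.0356). Its leaf counts all came from leaf replicate 3, without which the log2 fold change was 8.53.

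CYP749A unigenes, for which no reaction on beta-amyrin is assigned in the annotations, were the most numerous group. They summed to 289, 351 and 294 FPKM in callus, against 160, 151 and 224 FPKM in leaf, and 52 of the 66 lay in clusters CL747 and CL237. CL747, with 15 contigs, held the abundant ones. CL747.Contig3_All had 53.0, 62.9 and 59.1 FPKM in callus, against 12.2, 23.2 and 18.9 FPKM in leaf, and was the only contig of the cluster that passed (log2 fold change 1.67 ± 0.30, edgeR adjusted p = 0.0136).

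Other abundant contigs of CL747 were higher in every callus library without passing. CL747.Contig12_All had 34.4, 45.0 and 38.3 FPKM in callus, against 27.5, 19.7 and 29.95 FPKM in leaf (log2 fold change 0.60 ± 0.22, edgeR adjusted p = 0.0906). CL747.Contig13_All had 41.7, 81.5 and 49.3 FPKM in callus, against 18.5, 7.79 and 35.3 FPKM in leaf (1.48 ± 0.56, edgeR adjusted p = 0.0999), and without leaf replicate 3 it passed (2.14, edgeR adjusted p = 0.0371). CL747.Contig5_All had 3.46, 16.6 and 4.92 FPKM in callus, against 18.3, 14.8 and 29.7 FPKM in leaf, with overlap through callus replicate 5. The cluster as a whole did not pass (0.50 ± 0.20, edgeR adjusted p = 0.0875).

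CL237 held 37 scarcer CYP749A contigs, of which 24 were tested. Among these, 6 were higher in callus (25%, against 14.2% of all tested unigenes) and 0 lower (against 12.3%). CL237.Contig27_All had 9.52, 14.5 and 16.1 FPKM in callus, against 1.69, 2.35 and 4.27 FPKM in leaf (log2 fold change 2.24 ± 0.44, edgeR adjusted p = 0.0175), and CL237.Contig9_All had 14.6, 9.85 and 9.83 FPKM in callus, against 3.98, 2.23 and 3.41 FPKM in leaf (1.85 ± 0.37, edgeR adjusted p = 0.0182). CL237.Contig33_All had 3.20, 8.64 and 7.27 FPKM in callus and 0 counts in every leaf library, which puts callus at least 249-fold higher with the same floor (edgeR adjusted p = 0.00801). The remaining calls were CL237.Contig11_All, CL237.Contig29_All and CL237.Contig39_All, with log2 fold changes of 2.63, 2.85 and 2.23. Of the 24 tested contigs 15 were higher in every callus library than in any leaf library (28.4% of all tested unigenes were). In the other direction it was 1 contig (25.5% of all tested unigenes). Shared reads were divided between contigs of a cluster, so these contigs are not separate measurements.

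The cluster sum of CL237 did not describe its P450s. The members held 9.63% of its counts, and a single contig named as a cysteine proteinase, CL237.Contig37_All, had 255, 260.2 and 270 FPKM in callus, against 486, 1031 and 228 FPKM in leaf. With every contig counted, the log2 fold change of the cluster was -0.97 ± 0.49 (edgeR adjusted p = 0.157). With member contigs alone it was 1.201 (edgeR adjusted p = 0.0145). The member contigs summed to 75.0, 80.7 and 85.1 FPKM in callus, against 24.9, 24.3 and 39.3 FPKM in leaf.

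**Figure D5:**
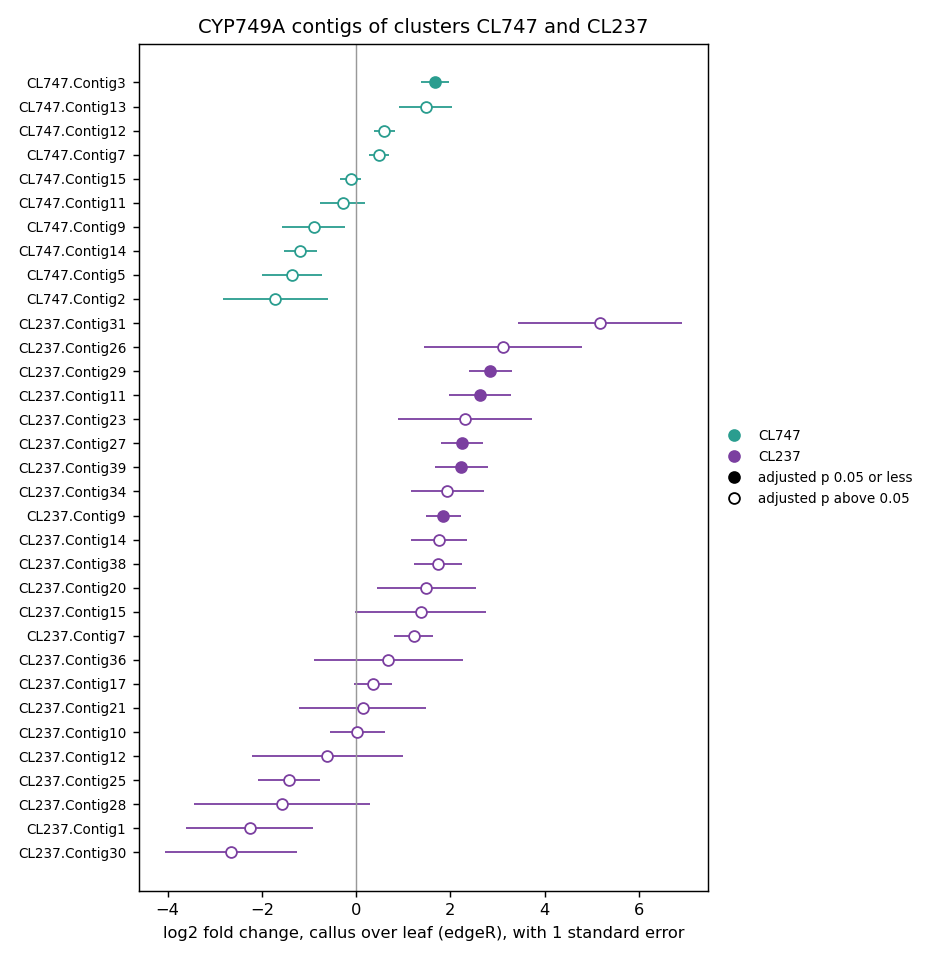
Log2 fold change of callus over leaf (edgeR) with 1 standard error for the 33 tested CYP749A contigs of clusters CL747 and CL237 that had counts in both tissues; filled points passed an adjusted p of 0.05. In CL747 only CL747.Contig3_All passed, at 1.67, while most points of CL237 lie to the right of 0.

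Other genes of the pathway were taken from lists of SwissProt names. Beta-amyrin synthase, which makes the substrate, summed to 98.8, 68.5 and 77.8 FPKM in callus, against 136, 126 and 136 FPKM in leaf. Among its 26 tested unigenes 4 were higher and 4 lower (15.4% each, near the 14.2% and 12.3% of all tested unigenes). Its most abundant unigene, Unigene32489_All, had 9.77, 0.65 and 3.58 FPKM in callus, against 31.4, 35.2 and 37.2 FPKM in leaf, and did not pass (log2 fold change -2.85 ± 0.93, edgeR adjusted p = 0.0693). Upstream, squalene synthase (3 tested) had 0 calls in either direction, with 2 unigenes at an unadjusted p under 0.05. Squalene epoxidase, also upstream (11 tested), had 1 higher and 1 lower (9.09% each). The other oxidosqualene cyclases, which lead to sterols and other triterpenes, had 13 higher (27.1%) and 4 lower (8.33%) of 48 tested. Their most abundant unigene, Unigene5596_All, named cycloartenol synthase, had 54.2, 67.2 and 73.6 FPKM in callus, against 8.74, 3.77 and 12.0 FPKM in leaf (2.99 ± 0.44, edgeR adjusted p = 0.00950).

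Genes for electron donors of the P450s were read from the same fit. NADPH-cytochrome P450 reductase summed to 188, 171 and 178 FPKM in callus, against 170, 209 and 150 FPKM in leaf, with 1 higher and 2 lower of 12 tested (8.33% and 16.7%, against 14.2% and 12.3% of all tested unigenes). Cytochrome b5, a second donor for some P450s, summed to 642, 546 and 590 FPKM in callus, against 353, 346 and 375 FPKM in leaf, with 13 higher and 0 lower of 32 tested (40.6% higher, against the same 14.2%), and a difference between the lists was not tested. Among the 433 other P450s, 73 of 323 tested unigenes were higher (22.6%) and 32 lower (9.91%), with a median log2 fold change of 0.49. The share of higher calls was thus 22.7% among the triterpene-oxidising members and 22.6% among the other P450s, and the difference was not tested.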

How the data were processed

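RNA from 3 callus and 3 leaf samples was sequenced by the authors as paired reads on a BGISEQ-500, assembled with Trinity and TGICL into unigenes, mapped with Bowtie2 2.2.5 and quantified with RSEM 1.2.8. The deposited values are expected counts and FPKM per unigene, divided by RSEM between similar contigs. The authors' own averages, log2 fold changes and p-values were not used. Columns were assigned to samples by their titles.

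Expected counts were rounded and tested across all unigenes with edgeR 4.0.16 (quasi-likelihood, TMM, filterByExpr, Benjamini-Hochberg adjustment), and again after summing contigs of a cluster. SE is the log2 fold change over the root of F. The tests were checked on simulated data. DESeq2 and limma on log2(FPKM + 1) or log2(FPKM + 0.01), where FPKM was above 0 in at least 3 libraries, were alternatives, with other scalings, no filter, no peanut matches and each library left out. Named unigenes were the 3 most abundant per group, the 10 largest rises and falls at 1 FPKM or more, those at 5 FPKM or more and those matching Platycodon P450s. The text gives fits for part of the last 2 sets and summarises the rest. The members, groups and lists were chosen with earlier results of these data known, and sums by named P450 after the values were seen. Intervals and floors cover counting error only. No sequences were used here.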

Additional observations from a re-analysis of the deposited data

How the results depend on the processing

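At an adjusted p of 0.05, edgeR with no filter called 15 members higher and 1 lower. The lower count was 13 in DESeq2 and 11 in edgeR with its newer dispersion scheme. In limma it was 14 and 15 with 0.01 and 1 added to the FPKM. Leaving out 1 library gave 0 (without callus replicate 6) to 26 higher and 0 to 8 lower. Over all unigenes, no filter gave 6387 higher and 3861 lower of 143094, and DESeq2 gave 15044 lower of 143094. The newer scheme gave 10657 lower of 66307, and limma 11973 and 10792 lower of 102152 with 0.01 and 1 added. Leaving out 1 library gave 670 (without callus replicate 6) to 10308 higher and 455 to 8530 lower over all unigenes. At the thresholds of the methods DESeq2 called 20 higher and 2 lower and limma with 1 added called 1 higher. For clusters, no filter gave 2 lower at 0.05, and leaving out 1 library gave 2 (without callus replicates 5 or 6, or leaf replicate 2) to 7 lower (without leaf replicate 3). Over all units, no filter gave 4424 lower of 89061, and leaving out 1 library gave 3401 to 6869 lower. The 1 cluster higher at the strict thresholds became 8 in DESeq2, with 2 lower, 3 with the newer scheme and 4 with no filter. It became 0 with member contigs alone or without any 1 library. Over all units the strict higher counts were 4816 in DESeq2, with 3464 lower, 1123 with the newer scheme and 773 with no filter. They were 367 with member contigs alone and 0 without any 1 library.

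The lists of pathway enzymes and electron donors had 32 higher and 11 lower. Cytochrome b5 gave 13 and 0 of these (32 tested), and NADPH-cytochrome P450 reductase 1 and 2 (12 tested). The other oxidosqualene cyclases gave 13 and 4 (48 tested), beta-amyrin synthase 4 and 4 (26 tested), and squalene epoxidase 1 and 1 (11 tested). Of all tested unigenes 14.2% were higher and 12.3% lower. For these lists no filter gave 21 and 7, DESeq2 24 lower, and leaving out 1 library 3 (without callus replicate 6) to 33 higher and 0 to 15 lower. Other P450s had 73 and 32: DESeq2 gave 57 lower, no filter 17 lower, and leaving out 1 library 5 to 79 higher and 0 to 36 lower, the lowest without callus replicate 6. The cluster CL237 changed sign to 1.201 with member contigs alone, where a cysteine proteinase no longer entered. The levels per group moved by less than the spread between libraries with TMM-scaled counts or with long members alone, which left no member for carbon 24. The fitted changes of named features kept their direction in every other alternative. No paired analysis was possible because the callus libraries (4 to 6) and the leaf libraries (1 to 3) share no replicate number. The common biological coefficient of variation of 0.753 for unigenes and the 3 libraries per tissue limit what the tests can call.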
